A study of Mus musculus with 4 samples.

Results

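The 35 genes described here make, take up, move, store and export cholesterol, and were chosen by name from the 21690 gene symbols in the table of FPKM values (sequenced fragments, divided by transcript length and by the size of the library). They comprise 7 genes of the mevalonate pathway, 10 of squalene and sterol synthesis, 5 of SREBP control, 2 LXR receptors, 2 lipoprotein uptake receptors, 3 of efflux and lipoprotein, 4 of intracellular transport and storage, and 2 sterol hydroxylases. All 35 had a successful estimate and a mean FPKM of at least 1, so all were among the 12655 genes tested. The libraries were made from whole retinas of 3-week-old mice, 2 from *rd7* mice and 2 from wild-type C57BL/6J mice. The *rd7* mice are *Nr2e3* mutants, and *Nr2e3* encodes a nuclear receptor that rod photoreceptors need to develop. Their strain is also given as C57BL/6J. Each library pooled 8 retinas from 2 female and 2 male mice, so libraries of the same genotype differ as pools of animals do. Nothing further distinguished the genotypes in the labels, and no agent was given.

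Cells build cholesterol from acetyl-CoA, first along the mevalonate pathway to isoprenoid units and then through squalene and lanosterol to cholesterol. SREBP transcription factors are held in the endoplasmic reticulum with SCAP by the INSIG proteins while sterols are abundant, and otherwise move to the Golgi, are cleaved and switch on genes of synthesis and uptake. The LXR receptors sense oxysterols and switch on genes of efflux. In the retina, Müller glia and the pigment epithelium supply lipoprotein cholesterol to neurons, and photoreceptor membranes hold cholesterol that is renewed with the outer segments.

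The deposited values hold no read counts. From the lowest FPKM values, the libraries were estimated to hold between 3.49e+07 and 3.56e+07 reads. Those values were taken within a window chosen by eye, so both the estimated depth and the closeness of the libraries may come from the window. With these depths, between 122 reads (*Cyp27a1*) and 44405 reads (*Apoe*) were estimated behind a value of a cholesterol gene. The length used joined all annotated exons of a gene, so these numbers of reads may be too high. No estimate was made for *Hmgcs1*. Log2(FPKM + 0.1) was compared with limma, with Benjamini-Hochberg adjustment over all genes tested and a false discovery rate (FDR) of 5%. Every adjusted p below comes from that comparison, or from the same limma steps under another setting where the text names one. Adding 0.1 makes the fold change of low genes appear smaller than it is. The mutated gene, *Nr2e3*, stood at 2493 and 1589 FPKM with the mutation and at 385 and 394 in wild-type retinas. Genes of other cell types also differed between the genotypes. Of 9 cone markers tested, 7 were higher in *rd7* retinas, and their summed FPKM was 3786 and 4006 in *rd7* libraries against 1231 and 1272 in wild-type libraries. Of 8 Müller cell markers 5 were higher (summed FPKM 1582 and 1543 against 1345 and 1380), as were 5 of 6 pigment epithelium markers (73.0 and 62.0 against 38.4 and 23.9). Of 7 rod markers, 4 were lower. Of all genes tested, 37.6% were higher and 8.80% lower. With median-ratio scaling, 7 cone, 4 Müller cell and 4 pigment epithelium markers were higher, and 4 rod markers and 1 cone marker lower. The shares of all genes tested were then 19.7% and 19.6%. After correction for GC content and exonic length, 7 cone, 4 Müller cell and 3 of 5 pigment epithelium markers were higher. Then 5 rod markers were lower, beside 12.4% higher and 15.0% lower of all genes tested. In *rd7* replicate 2 the summed FPKM of 6 markers of astrocytes and reactive glia was 87.0, against 40.1 in *rd7* replicate 1 and 31.8 and 33.5 in the wild-type libraries. The part of these differences in the values of the cholesterol genes was not tested.

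Compared with wild-type retinas, 13 of the 35 cholesterol genes were higher in *rd7* retinas, 3 were lower and 19 were not called at an FDR of 5%. The share called higher was 37.1%, beside 37.6% of all genes tested, and the share called lower was 8.57%, beside 8.80%. Both shares are close to those of all genes. Differences were small, with log2 fold changes between -0.34 for *Srebf1* and 0.76 for *Stard4*. None passed 1 in either direction, and 3 passed 0.5, which is 8.57% of the cholesterol genes, beside 16.0% of all genes tested. The median log2 fold change was 0.09, beside 0.15 over all genes tested. Both *rd7* values lay above both wild-type values in 18 genes (57.1% of all genes tested did so) and below them in 6 genes (19.5%), and the genotypes overlapped in 11. In bulk tissue, fewer cells of a type and less RNA per cell cannot be told apart.

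**Figure D1:**
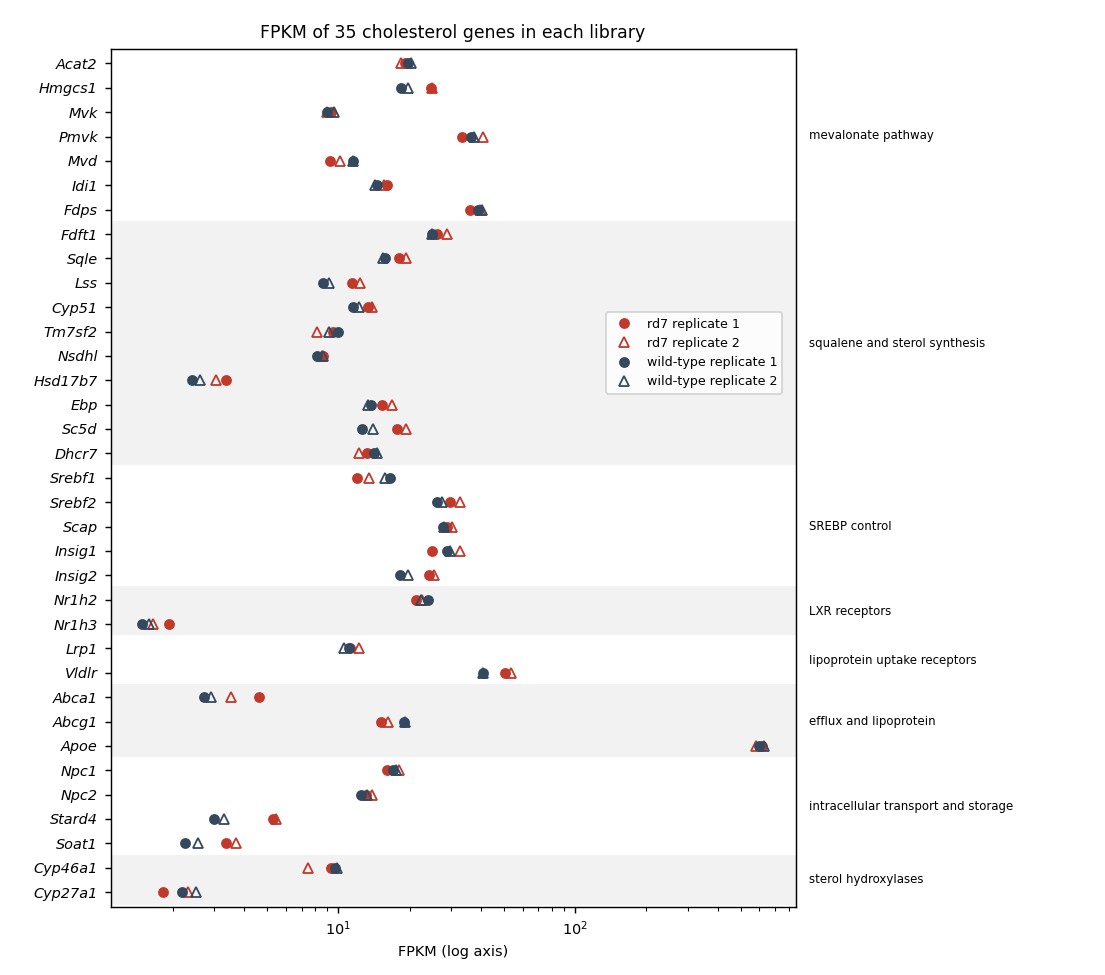
Each row is 1 of the 35 cholesterol genes, ordered by role, and the x axis gives its FPKM on a log scale, with circles for replicate 1 and triangles for replicate 2 of rd7 (red) and wild-type (dark blue). *Apoe* stands far to the right at 581 to 630 FPKM, while *Nr1h3*, the lowest, lies between 1.48 and 1.94, and for *Stard4* the 2 rd7 symbols lie apart from the 2 wild-type symbols.

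Levels ranged widely across the set. On the FPKM scale, which divides by transcript length, *Apoe* was the highest in wild-type retinas with a mean of 614, followed by *Vldlr* at 40.8, *Fdps* at 39.6 and *Pmvk* at 36.9. The lowest were *Nr1h3* at 1.53, *Cyp27a1* at 2.35 and *Soat1* at 2.41. The 4 highest and the 2 lowest held the same ranks in *rd7* retinas. *Fdps* and *Pmvk* overlapped in level, and the *rd7* libraries gave 35.9 and 39.8 for *Fdps* and 33.2 and 40.8 for *Pmvk*.

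**Figure D2:**
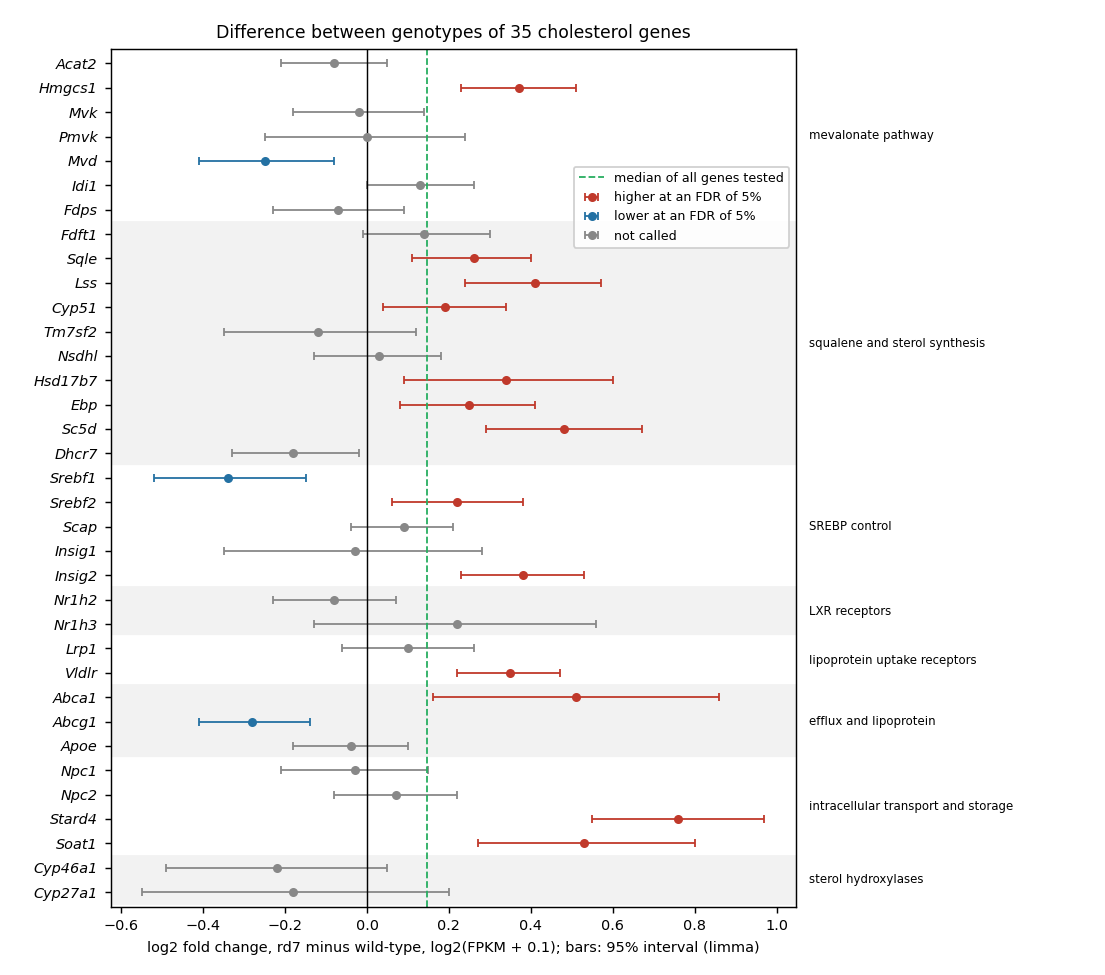
Points give the log2 fold change of each gene, rd7 minus wild-type, with its 95% interval from limma, in red for genes called higher, blue for genes called lower and gray for the rest, and the dashed green line is the median of all genes tested (0.15). *Stard4* lies farthest to the right at 0.76 and *Srebf1* farthest to the left at -0.34.

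The mevalonate pathway turns acetyl-CoA into farnesyl diphosphate. Of its 7 genes 1 was higher and 1 lower, beside 37.6% and 8.80% of all genes tested. *Hmgcs1*, the cytosolic HMG-CoA synthase, was higher and *Mvd*, the decarboxylase that makes isopentenyl diphosphate, was lower, and the other 5 were not called. The *rd7* libraries gave 24.6 and 25.0 FPKM for *Hmgcs1* and the wild-type libraries 18.5 and 19.8. Both *rd7* values were above both wild-type values, with a log2 fold change of 0.37 (SE 0.06, 95% interval 0.23 to 0.51, adjusted p = 0.00482). The table lists *Hmgcs1* at 2 loci of unplaced chromosome 13 sequence of mm9, from 114710 to 132325 and from 308620 to 326235, with the same values at each, so reads may have been divided between near-identical copies and its level is uncertain.

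*Hmgcs1* is a known target of SREBP proteins, and among the genes called it was the one whose promoter held the core of the sterol regulatory element searched for, so that sequence is shown. The 250 bases before the RefSeq start of *Hmgcs1* in GRCm38.p6, a later build than that of the files, lie at chr13:119690101-119690350 on the plus strand. Capitals mark the sterol regulatory element core (TCACNCCAC, found as TCACCCCAC from 137 to 129 bases before the start) and 3 CCAAT boxes of the factor NF-Y, which read ATTGG on this strand.
Hmgcs1 promoter: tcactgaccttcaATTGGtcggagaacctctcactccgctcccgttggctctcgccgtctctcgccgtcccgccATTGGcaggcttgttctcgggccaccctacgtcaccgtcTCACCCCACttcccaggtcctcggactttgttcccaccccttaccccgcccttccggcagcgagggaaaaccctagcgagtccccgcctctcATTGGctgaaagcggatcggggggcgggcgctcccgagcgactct
The ATTGG letters start 237, 176 and 45 bases before the start.

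RefSeq promoters, from 250 bases before to 50 bases after the start, were matched for 29 of the 35 genes, with 41 promoters in all. Both strands were searched. The core TCACNCCAC was found in 1 of the 41 promoters, that of *Hmgcs1* (2.44%), beside 1.24% of all 32851 promoters. CCAAT was found in 23 promoters of 22 genes (56.1%), beside 37.4% of all promoters. TAATCC, the motif of the photoreceptor factor CRX, was in 6 promoters (14.6%), those of *Insig2*, *Nr1h3*, *Mvk*, *Apoe* and *Scap*, beside 7.06% of all. AAGTCA, a short site of NR2E3, was in 2 promoters (4.88%), those of *Soat1* and *Vldlr*, beside 15.1% of all. These matches describe letters in the window and were not compared with binding. No promoter was matched for *Abcg1*, *Stard4*, *Sqle*, *Fdft1*, *Npc1* and *Fdps*.

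*Mvd* (chromosome 8 of mm9, 124957496 to 124967322) had 9.27 and 10.2 FPKM in *rd7* libraries and 11.5 and 11.6 in wild-type libraries. Both *rd7* values lay below both wild-type values, and it fell by 0.25 on the log2 scale (SE 0.07, adjusted p = 0.0286). With values corrected for GC content and exonic length it was not called (-0.19, adjusted p = 0.103 with limma). *Acat2*, the cytosolic thiolase that starts the pathway, had 19.1 and 18.5 FPKM in *rd7* against 19.7 and 20.2 in wild-type libraries. It was not called (log2 fold change -0.08, adjusted p = 0.237 with limma). *Idi1*, the isomerase of isopentenyl diphosphate, had 16.0 and 15.6 against 14.6 and 14.3 (0.13, adjusted p = 0.0935 with limma). The genotypes were apart for both genes. The corrected values called *Acat2* (-0.24) and *Idi1* (-0.20) lower, and *Acat2* was also called lower with median-ratio scaling (-0.24) and quantile normalization (-0.23). The kinases overlapped between genotypes, *Mvk* with 9.32 and 9.00 against 8.95 and 9.60 and *Pmvk* with 33.2 and 40.8 against 36.3 and 37.6. *Fdps*, the farnesyl diphosphate synthase, overlapped too, with 35.9 and 39.8 against 38.9 and 40.3, and was called lower with median-ratio scaling (-0.22, adjusted p = 0.0450 with limma). The median log2 fold change of the 7 genes was -0.02.

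Of the 10 genes of squalene and sterol synthesis, 6 were higher and 0 lower, with a median log2 fold change of 0.22, beside 37.6% higher, 8.80% lower and a median of 0.15 over all genes tested. Scaling each library by the median ratio of its genes left 2 higher and made 1 lower, beside 19.7% and 19.6% of all genes tested. Correcting for GC content and exonic length left 0 higher and made 2 lower, beside 12.4% and 15.0%. *Sc5d*, the sterol C5-desaturase near the end of the pathway (chromosome 9, 42062260 to 42072383), had 17.7 and 19.3 FPKM in *rd7* libraries and 12.6 and 14.0 in wild-type libraries. *Lss*, the synthase that closes squalene epoxide to lanosterol (chromosome 10, 75994372 to 76016679), had 11.4 and 12.3 against 8.66 and 9.12. Both genes were higher in both *rd7* libraries, *Sc5d* by 0.48 (SE 0.08, adjusted p = 0.00566) and *Lss* by 0.41 (SE 0.07, adjusted p = 0.00596) on the log2 scale. *Sqle*, the squalene epoxidase, a rate-limiting enzyme of the later pathway (chromosome 15, 59146647 to 59162748), had 18.1 and 19.3 against 15.8 and 15.5. Its log2 fold change was 0.26 (adjusted p = 0.0157), and -0.01 after the correction for GC content and length. *Cyp51*, the lanosterol demethylase, had 13.3 and 13.9 against 11.6 and 12.2, and its log2 fold change of 0.19 (adjusted p = 0.0447) became -0.11 after that correction.

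*Ebp*, the sterol isomerase, had 15.3 and 16.8 FPKM in *rd7* against 13.7 and 13.3 in wild-type libraries, and differed by 0.25 on the log2 scale (adjusted p = 0.0277 with limma). *Hsd17b7*, a sterol ketoreductase, had 3.37 and 3.06 against 2.42 and 2.61, a log2 fold change of 0.34 (adjusted p = 0.0386 with limma). Both were higher in both *rd7* libraries and had smaller log2 fold changes, 0.03 and 0.02, after the correction for GC content and length. Among the 4 genes not called, *Fdft1*, the squalene synthase, had 26.2 and 28.9 against 25.0 and 24.9, and *Nsdhl*, a demethylating sterol dehydrogenase, had 8.61 and 8.55 against 8.16 and 8.66. *Tm7sf2*, a sterol reductase, had 9.53 and 8.16 against 10.0 and 9.13. *Dhcr7*, the reductase that completes cholesterol, had 13.2 and 12.2 against 14.2 and 14.6, below wild-type in both libraries, with a log2 fold change of -0.18 (adjusted p = 0.0656 with limma). Each of the 3 other scalings (median-ratio, quantile, and GC content with length) called *Dhcr7* lower, with log2 fold changes of -0.33, -0.33 and -0.31.

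The 2 SREBP genes were called in opposite directions in the deposited values. *Srebf1*, whose protein mainly drives fatty acid synthesis (chromosome 11, 60012591 to 60034106), had 12.0 and 13.5 FPKM in *rd7* libraries and 16.5 and 15.7 in wild-type libraries. *Srebf2*, whose protein mainly drives cholesterol synthesis (chromosome 15, 81977699 to 82035390), had 29.7 and 32.7 against 26.1 and 27.4. The genotypes were apart for both. *Srebf1* fell by 0.34 on the log2 scale (SE 0.07, 95% interval -0.52 to -0.15, adjusted p = 0.0154), and it was called lower in 9 of 9 other settings at this FDR with all libraries. *Srebf2* was higher by 0.22 (SE 0.07, 95% interval 0.06 to 0.38, adjusted p = 0.0380). It was called higher in 4 of those 9 settings, with log2 fold changes from 0.07 to 0.22 over the 9. *Srebf2* was not called with median-ratio scaling (0.07), quantile normalization (0.09) or the correction for GC content and length (0.18). *Insig2*, one of the proteins that retain SREBP (chromosome 1, 123200930 to 123229157), had 24.2 and 25.4 against 18.3 and 19.7 and was higher by 0.38 (SE 0.06, adjusted p = 0.00549). *Insig1*, itself an SREBP target, had 24.8 and 32.7 against 28.7 and 29.5, so the 2 *rd7* libraries lay on either side of wild-type. *Scap*, the SREBP escort, had 28.9 and 30.3 against 27.8 and 28.0 and was not called (0.09, adjusted p = 0.216 with limma).

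The ratio of paired genes within a library does not contain the library's scaling factor, and 4 such ratios were taken with no test. *Srebf2* over *Srebf1* was 2.47 and 2.43 in *rd7* libraries and 1.58 and 1.75 in wild-type libraries. *Insig2* over *Insig1* was 0.976 and 0.776 against 0.639 and 0.669. Both *rd7* ratios were above both wild-type ratios in each pair, by 0.56 and 0.41 on the log2 scale. *Abca1* over *Abcg1* was 0.302 and 0.218 against 0.143 and 0.152, higher by 0.80. *Nr1h2* over *Nr1h3* was 10.9 and 13.5 against 16.2 and 14.0, and the ratio of these receptors differed by -0.31. Differences of GC content and length between the genes of a pair remain in such ratios. Single genes were often apart too (57.1% of all genes tested above and 19.5% below), and no such share was counted for other pairs.

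**Figure D3:**
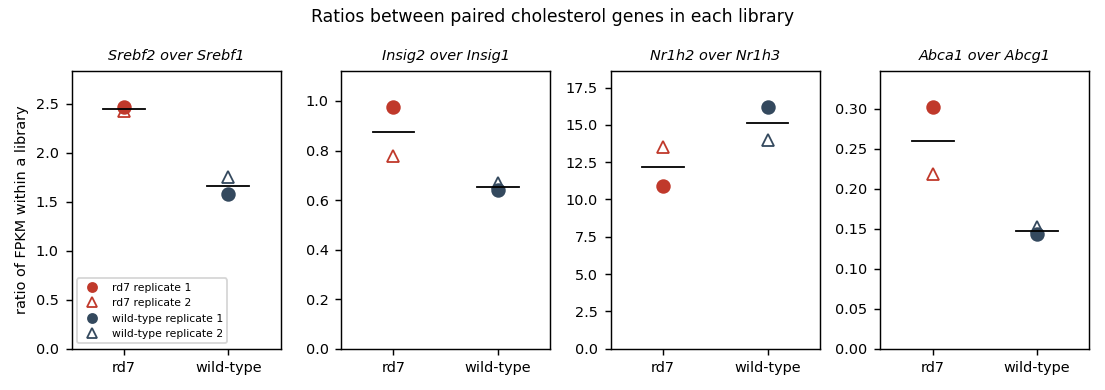
Each panel gives the ratio of the FPKM of a pair of genes in each library on an axis from 0, with circles for replicate 1, triangles for replicate 2 and a line at the mean of each genotype. *Srebf2* over *Srebf1* was 2.47 and 2.43 in rd7 against 1.58 and 1.75 in wild-type libraries. The genotypes do not overlap in any of the 4 panels, but how many other gene pairs are apart was not counted.

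Neither LXR receptor was called in the deposited values. *Nr1h2*, the widely expressed LXRβ, had 21.3 and 22.5 FPKM in *rd7* libraries against 23.9 and 22.3 in wild-type libraries (log2 fold change -0.08, adjusted p = 0.340 with limma). It was called lower with median-ratio scaling (-0.23, adjusted p = 0.0381) and quantile normalization (-0.22, adjusted p = 0.0464), but not after the correction for GC content and length (-0.08). *Nr1h3*, LXRα, had 1.94 and 1.66 against 1.48 and 1.59 (0.22, 95% interval -0.13 to 0.56, adjusted p = 0.244 with limma). The lowest value of *Nr1h3* rests on an estimated 131 reads.

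Of the lipoprotein receptors, *Vldlr* (chromosome 19, 27291510 to 27328721), which binds triglyceride-rich lipoproteins and reelin, had 50.4 and 53.5 FPKM in *rd7* libraries and 40.7 and 41.0 in wild-type libraries. Both *rd7* values were higher, by 0.35 on the log2 scale (SE 0.05, 95% interval 0.22 to 0.47, adjusted p = 0.00453). After the correction for GC content and length the log2 fold change of *Vldlr* was 0.01 (adjusted p = 0.845 with limma). *Lrp1*, a large receptor for remnant lipoproteins, had 11.2 and 12.2 against 11.1 and 10.6 and was not called (0.10, adjusted p = 0.257 with limma).

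The 2 ABC transporters were called in opposite directions in the deposited values. *Abca1*, which loads lipid-poor apolipoproteins (chromosome 4, 53043661 to 53172767), had 4.61 and 3.52 FPKM in *rd7* libraries against 2.71 and 2.91 in wild-type libraries. It was higher by 0.51 (SE 0.14, adjusted p = 0.0309), with a wide 95% interval of 0.16 to 0.86, and was not called under median-ratio scaling (0.36), quantile normalization (0.30) or after correcting for GC content and length (0.23). *Abcg1*, which exports cholesterol to mature lipoproteins (chromosome 17, 31194639 to 31254926), had 15.2 and 16.2 against 19.0 and 19.1. It fell by 0.28 (SE 0.06, adjusted p = 0.0115) and was called lower in 9 of 9 other settings at this FDR with all libraries, with log2 fold changes from -0.43 to -0.26. *Apoe*, the main apolipoprotein of the central nervous system, had 616 and 581 against 599 and 630. Its genotypes overlapped, and the 95% interval of its log2 fold change was -0.18 to 0.10 (adjusted p = 0.620 with limma). Median-ratio scaling called *Apoe* lower (-0.19, adjusted p = 0.0385 with limma), and the other 2 scalings did not.

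*Stard4*, a soluble carrier that moves sterol between membranes, had the largest difference of the 35 genes. Its FPKM was 5.32 and 5.45 in *rd7* libraries and 2.98 and 3.30 in wild-type libraries, both *rd7* values well above both wild-type values. The log2 fold change was 0.76 (SE 0.09, 95% interval 0.55 to 0.97, adjusted p = 0.00219), a 1.70-fold difference. It was called higher in 8 of 8 other settings at this FDR with all libraries that tested it, where the log2 fold change ran from 0.42 to 0.78, and in 4 of 4 fits that left out a library. *Soat1*, which esterifies cholesterol for storage (chromosome 1, 158358239 to 158404459), had 3.37 and 3.69 against 2.26 and 2.56. It was higher by 0.53 (SE 0.11, 95% interval 0.27 to 0.80, adjusted p = 0.0113), and by 0.22 after the correction for GC content and length, where it was not called. *Npc1* and *Npc2*, which carry cholesterol out of lysosomes, overlapped between genotypes, with 16.0 and 18.1 against 17.1 and 17.5 for *Npc1* and 13.1 and 13.9 against 12.5 and 13.2 for *Npc2*. The correction for GC content and length called *Npc1* lower (-0.31, adjusted p = 0.0246 with limma).

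The hydroxylases clear cholesterol as oxysterols, and neither was called in the deposited values. *Cyp46a1*, the 24-hydroxylase of neurons, had 9.35 and 7.49 FPKM in *rd7* libraries against 9.68 and 9.88 in wild-type libraries, below wild-type in both (log2 fold change -0.22, 95% interval -0.49 to 0.05, adjusted p = 0.146 with limma). It was called lower with median-ratio scaling (-0.38, adjusted p = 0.0385) and quantile normalization (-0.39, adjusted p = 0.0417), but not after the correction for GC content and length (-0.19). Without *rd7* replicate 1 it was called lower (-0.38), and without *rd7* replicate 2 its log2 fold change was -0.06. *Cyp27a1*, a mitochondrial sterol hydroxylase, had 1.83 and 2.33 against 2.19 and 2.51 (-0.18, adjusted p = 0.376 with limma). Its lowest value rests on an estimated 122 reads.

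How the libraries were scaled changed which cholesterol genes were called. Median-ratio scaling moved the median over all genes tested from 0.15 to -0.0049 (log2 fold change), and with it 7 cholesterol genes were higher and 9 lower (20.0% and 25.7%, beside 19.7% and 19.6% of all genes tested). The share of higher calls among all calls fell from 81.0% to 50.1%. After the correction for GC content and exonic length, which could be made for 34 of the 35 genes, 1 was higher and 7 were lower (2.94% and 20.6%, beside 12.4% and 15.0% of all genes tested). Across the deposited values, median-ratio scaling, quantile normalization and this correction, *Stard4* was called higher in all 4, *Srebf1* and *Abcg1* were called lower in all 4, and 10 genes were called in none. No gene was called higher in one and lower in another. *Hmgcs1*, *Lss*, *Sc5d*, *Insig2* and *Vldlr* were higher and *Mvd* lower in the other three but not after the correction, which *Hmgcs1* could not enter.

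The genes called higher had exons of lower GC content than those called lower. Of 12 cholesterol genes called higher with an annotated GC content, 11 were below 50% GC, with a median of 45.8%, and *Srebf2* was the exception at 57.5%. The 3 genes called lower had 52.9% to 59.3%. Of the 19 not called, 4 were below 50% GC. All tested genes showed the same order, with a median of 46.4% among those called higher, 54.7% among those called lower and 52.0% among those not called. Below 50% GC were 3349 of the 4640 called higher, 221 of the 1062 called lower and 2512 of the 6556 not called.

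**Figure D4:**
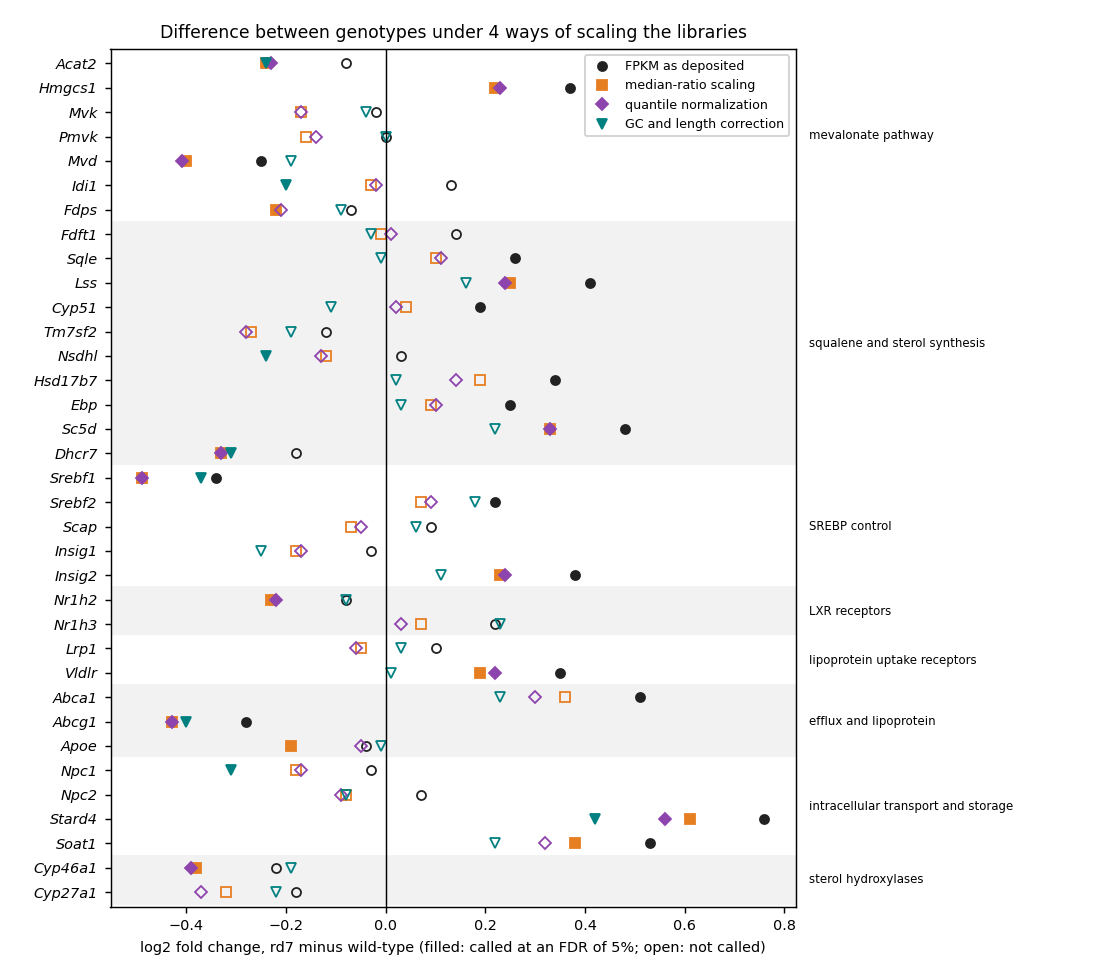
For each gene the x axis gives the log2 fold change, rd7 minus wild-type, from the FPKM as deposited (black circles), after median-ratio scaling (orange squares), after quantile normalization (purple diamonds) and after correction for GC content and length (green triangles), filled where called at an FDR of 5%. *Stard4* is filled on the right in all 4 (0.42 to 0.76), *Srebf1* and *Abcg1* are filled on the left in all 4, and *Hmgcs1* has no value after the correction.

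With a library left out, the remaining library of that genotype is assumed to vary like the other genotype. Without wild-type replicate 1, *Stard4* alone was called higher and 0 genes were lower, beside 10.2% and 1.77% of all genes tested, and the adjusted p of the 15 calls lost ran from 0.0606 (*Vldlr*) to 0.296 (*Cyp51*) with limma. All 15 kept their direction, with log2 fold changes such as 0.34 against 0.35 for *Vldlr*, -0.28 against -0.28 for *Abcg1*, 0.40 against 0.48 for *Sc5d* and 0.15 against 0.19 for *Cyp51*. Without wild-type replicate 2, 7 were higher and 0 lower, beside 16.8% and 2.67%, and *Sqle*, *Cyp51*, *Hsd17b7*, *Ebp*, *Srebf2*, *Abca1*, *Mvd*, *Srebf1* and *Abcg1* were the calls lost, with log2 fold changes of 0.24, 0.23, 0.40, 0.22, 0.26, 0.56, -0.24, -0.38 and -0.27. Without *rd7* replicate 1, 15 were higher and 6 lower, beside 41.0% and 12.7%. That fit lost *Hsd17b7* (0.27) and added *Pmvk* (0.14), *Fdft1* (0.21), *Insig1* (0.17), *Tm7sf2* (-0.23), *Dhcr7* (-0.23) and *Cyp46a1* (-0.38). Without *rd7* replicate 2, 11 were higher and 6 lower, beside 43.3% and 11.6%. That fit lost *Cyp51* (0.16) and *Srebf2* (0.15) and added *Pmvk* (-0.15), *Fdps* (-0.14) and *Insig1* (-0.23). *Pmvk* and *Insig1* were thus called in opposite directions depending on which *rd7* library was left out.

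Another 60 genes of cholesterol and fatty acid metabolism were listed, and 49 of them were tested. In *rd7* retinas 20 of these were higher (40.8%) and 5 lower (10.2%), and their median log2 fold change was 0.27. These shares are close to those of all genes tested (37.6% and 8.80%). The counts of each list below in the deposited values stand beside the same shares. With median-ratio scaling 10 were higher and 11 lower (20.4% and 22.4%, beside 19.7% and 19.6% of all genes tested). After the correction for GC content and length 9 were higher and 8 lower (18.4% and 16.3%, beside 12.4% and 15.0%). Of the genes named below, *Mbtps2*, *Rxrg*, *Sorl1*, *Apod* and *Acly* were higher under each of the 3 other scalings and without any 1 library. *Mylip*, *Abca7*, *Me1* and *Rxra* were lower under each of the 3 scalings, but each lost its call without wild-type replicate 1. *Mylip* (-0.28) and *Rxra* (-0.19) also lost it without wild-type replicate 2, and *Rxra* (-0.15) without *rd7* replicate 1. *Lipa* and *Lpcat3* were higher under each of the 3 scalings, but *Lipa* was not called without wild-type replicate 1, nor *Lpcat3* without either wild-type library. *Ggps1*, *Scp2* and *Scd2* were not called after the correction for GC content and length (0.12, 0.11 and 0.15), and *Scp2* and *Scd2* were not called without wild-type replicate 1 either. *Lcat* was not called with median-ratio scaling (0.27) or quantile normalization (0.22), nor without either wild-type library. *Lbr*, *Rnf139*, *Lrp8*, *Lrpap1*, *Lpl* and *Nceh1* were not called under any of the 3 scalings, and *Rnf139* (-0.12) and *Nceh1* (-0.02) turned after correcting for GC content and length.

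Of 3 further genes of sterol synthesis, 2 were higher and 0 lower. *Sc4mol*, a sterol methyl oxidase, had 15.8 and 18.9 FPKM in *rd7* libraries against 19.9 and 19.8 in wild-type libraries and was not called (-0.20), but each of the 3 other scalings called it lower (-0.35, -0.34 and -0.53). *Ggps1*, which makes geranylgeranyl diphosphate, was higher by 0.44, with 18.5 and 19.7 against 14.1 and 14.1. *Lbr*, a sterol reductase of the nuclear envelope, was higher by 0.31.

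Of 8 further genes of SREBP and LXR control, 3 were higher and 1 lower. *Mbtps2*, the protease that makes the final cut releasing SREBP, had 6.70 and 6.05 FPKM in *rd7* libraries against 3.61 and 3.70 in wild-type libraries. *Rxrg*, a retinoid X receptor found in cones, had 7.04 and 6.87 against 4.46 and 3.76. Both were higher in both *rd7* libraries, by 0.78 (adjusted p = 0.0018) and 0.75 (adjusted p = 0.00312), and both kept the call in 9 of 9 other settings at this FDR with all libraries. *Rnf139*, a ubiquitin ligase of the endoplasmic reticulum, was higher by 0.24, and *Rxra*, a retinoid X receptor that pairs with LXR, fell by 0.18.

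Of 8 further uptake genes tested, 3 were higher and 1 lower. *Sorl1*, a sorting receptor that binds lipoproteins, had 9.88 and 11.4 FPKM in *rd7* libraries against 5.67 and 5.98 in wild-type libraries, higher by 0.85 (adjusted p = 0.00166 with limma). *Mylip*, a ubiquitin ligase that marks lipoprotein receptors for breakdown, fell by 0.29. *Lrp8*, an apolipoprotein E receptor, was higher by 0.38, and *Lrpap1*, a chaperone of lipoprotein receptors, by 0.21.

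Of 8 further efflux and lipoprotein genes tested, 3 were higher and 2 lower. *Abca7*, an ABC transporter related to *Abca1*, had 5.09 and 5.65 FPKM in *rd7* libraries against 8.10 and 7.62 in wild-type libraries, and fell by 0.54 (adjusted p = 0.00427 with limma). *Apod*, a lipocalin apolipoprotein, was higher by 0.86 at low levels of 2.15 and 1.93 against 1.12 and 1.03. *Lpl*, lipoprotein lipase, and *Lcat*, which esterifies cholesterol on lipoproteins, were higher by 0.44 and 0.41. Of 10 transport and storage genes, 3 were higher and 0 lower. After the correction for GC content and length 1 was higher, beside 12.4% of all genes tested. The 3 higher in the deposited values were *Lipa*, the lysosomal acid lipase (0.58), *Scp2*, a sterol carrier (0.39), and *Nceh1*, a cholesterol ester hydrolase (0.30). None of 3 further hydroxylases tested was called.

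Of 9 tested targets through which SREBP1 and LXR drive fatty acid synthesis, 6 were higher and 1 lower, beside 37.6% and 8.80% of all genes tested. Each of the 3 other scalings left 3 higher and 1 lower, and moved the median log2 fold change of the 9 from 0.30 to 0.14, 0.15 and 0.04. Under those scalings 19.7%, 18.6% and 12.4% of all genes tested were higher, and 19.6%, 19.0% and 15.0% were lower. *Acly*, the citrate lyase that makes cytosolic acetyl-CoA for fatty acids and sterols, had 117 and 115 FPKM in *rd7* libraries against 57.1 and 58.0 in wild-type libraries. Its log2 fold change of 1.01 (SE 0.04, adjusted p = 0.000202 with limma) exceeded that of each of the 35 cholesterol genes, and it was called in 9 of 9 other settings at this FDR with all libraries. *Lpcat3*, a phospholipid acyltransferase, was higher by 0.54 and *Scd2*, a desaturase, by 0.38, and *Me1*, the malic enzyme, fell by 0.37.

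**Figure D5:**
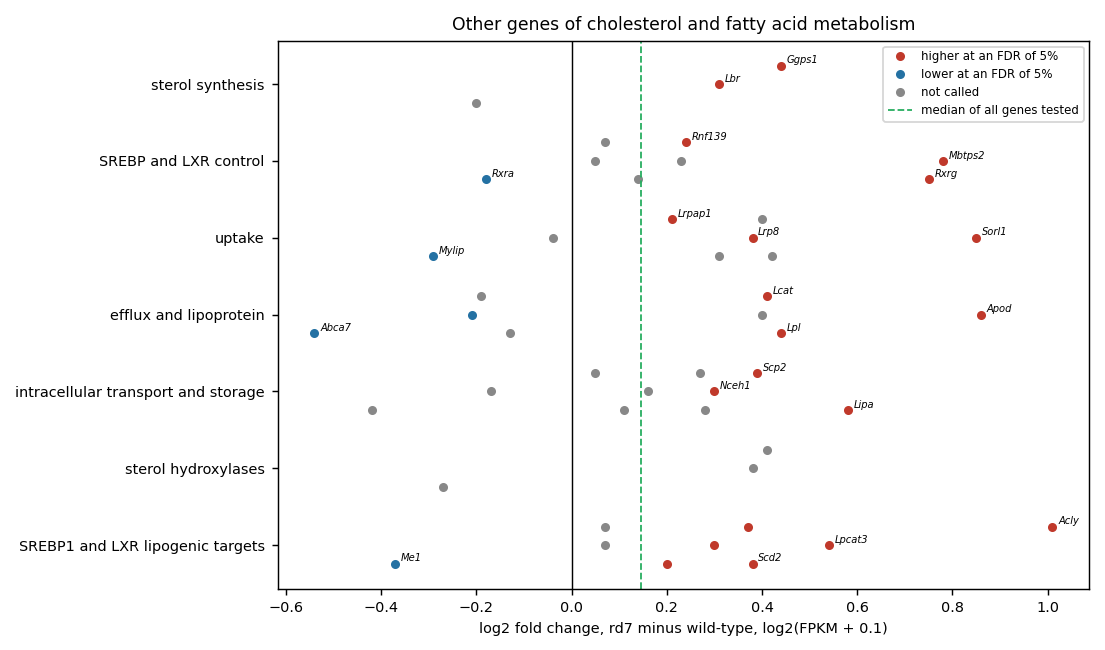
Points give the log2 fold change, rd7 minus wild-type, of 49 further genes of cholesterol and fatty acid metabolism in 7 lists, in red where called higher, blue where called lower and gray where not called, with up to 4 called genes named in each list and a dashed line at the median of all genes tested (0.15). *Acly* lies farthest to the right at 1.01 and *Abca7* farthest to the left at -0.54.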

How the data were processed

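RNA-seq of 2 *rd7* and 2 wild-type libraries was analysed. Single 50-base reads had been aligned to mm9 by the authors (TopHat 1.4.1), who then estimated FPKM for each gene of each library (Cufflinks 1.3.0), and the deposited FPKM table was used. The deposited table of the authors' Cuffdiff comparison (pooled FPKM per genotype, fold changes, p-values) was not used. FPKM are not counts, so no count model was run. Of 22095 loci, 262 without a successful status in every library were left out.

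Genes whose FPKM averaged 1 or more were compared on log2(FPKM + 0.1) in R 4.3.3, using the limma package 3.58.1 (eBayes, variance trend, 2 against 2 libraries without a block, two-sided, Benjamini-Hochberg adjustment, FDR of 5%). The step was tested on simulated data. An exact permutation test of 2 against 2 libraries cannot give a p under 0.333 and was not used. Alternatives were pseudocounts of 1 and 0.01, no filter, a minimum mean FPKM of 5, scaling by median ratios or by quantiles, correcting for the GC content and length of exons (natural splines, available for 96.9% of tested genes and 97.1% of the cholesterol genes), no trend, a replicate block, an FDR of 1%, and leaving out each library. Depth was estimated from low values of FPKM times exonic length in kilobases, over genes with 1 transcript. The median of the values between 0.02 and 0.036 was taken as the worth of 1 read. That window was chosen by eye and may set the depth itself, which is an estimate only. Tables were made in Python 3.11.15. Promoters came from RefSeq (GRCm38.p6).

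The cholesterol genes, the other lists, the marker lists and the tests were chosen with earlier results of these data known. All 35 genes are named, as are the mutated gene, all 3 further sterol synthesis genes and, in each other list, up to 4 called genes by size of change. Marker lists not described in the text follow, with the numbers higher and lower of those tested. They were bipolar cell (5 and 0 of 6), amacrine and ganglion cell (4 and 0 of 6) and microglia (2 and 0 of 5). The others were vessel (1 and 0 of 6), lens (0 and 0 of 4) and blood (0 and 2 of 4). Of all genes tested, 37.6% were higher and 8.80% lower. The summed FPKM of the bipolar cell markers was 323 and 282 in *rd7* libraries against 213 and 211 in wild-type libraries. A few listed genes are not reported here and were left out of the lists.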

Additional observations from a re-analysis of the deposited data

How the results depend on the processing

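Of the 35 genes, *Stard4* (higher), *Srebf1* and *Abcg1* (lower) kept their calls in each setting that used all libraries and tested them at an FDR of 5%. The count of genes higher (13) became 8 with no filter, 7 with median-ratio scaling, 6 with quantile normalization, 1 after the correction for GC content and length and 6 at an FDR of 1%, and ran from 1 to 15 when a library was left out. The count lower (3) became 9, 7 and 7 with those 3 scalings and 0 at an FDR of 1%, and ran from 0 to 6 when a library was left out. Among the fits that left out a library, the count higher was lowest without wild-type replicate 1, and the count lower was 0 without either wild-type library. The median log2 fold change (0.09) became 0.03 at a mean FPKM of at least 5, -0.07 with median-ratio scaling, -0.05 with quantile normalization and -0.04 after the correction, and ran from 0.04 (without *rd7* replicate 2) to 0.12. The shares of all genes tested, higher and lower, moved as well, from 37.6% and 8.80% in the deposited values. They were 21.2% and 4.73% with no filter, 19.7% and 19.6% with median-ratio scaling, and 18.6% and 19.0% with quantile normalization. After the correction they were 12.4% and 15.0%, and no such share was taken at an FDR of 1%. Why the counts and the median of the cholesterol genes moved was not tested, beyond the shift that each scaling makes in all genes.

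Genes whose direction turned were not called in the new direction except where stated. With median-ratio scaling these were *Idi1* (-0.03), *Fdft1* (-0.01), *Nsdhl* (-0.12), *Scap* (-0.07), *Lrp1* (-0.05) and *Npc2* (-0.08), and with quantile normalization *Idi1* (-0.02), *Nsdhl* (-0.13), *Scap* (-0.05), *Lrp1* (-0.06) and *Npc2* (-0.09). After the correction for GC content and length they were *Pmvk* (0.00), *Idi1* (-0.20, called lower), *Fdft1* (-0.03), *Sqle* (-0.01), *Cyp51* (-0.11), *Nsdhl* (-0.24, called lower) and *Npc2* (-0.08). When a library was left out, *Mvk* ran from -0.07 to 0.03, *Pmvk* from -0.15 to 0.14, *Fdps* from -0.14 to 0.01, *Nsdhl* from -0.01 to 0.07, *Insig1* from -0.23 to 0.17, *Apoe* from -0.08 to 0.00 and *Npc1* from -0.11 to 0.06, and *Pmvk* and *Insig1* were called higher at their upper values, without *rd7* replicate 1.

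The replicate numbers are shared by the genotypes but are not said to mark a shared litter or day, and the deviations of same-numbered libraries did not correlate (-0.0265 over the genes tested). Adding the replicate block left 12 of the cholesterol genes higher and 3 lower, the median log2 fold change was 0.09, and *Hsd17b7* was the call lost (adjusted p = 0.0603 with limma). Over all genes tested, 4508 were higher and 1091 lower with the block.

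The authors give a total of reads but none per library. The depth of each library is known only as an estimate, so no interval for counting error is given. *Nr1h3* and *Cyp27a1* rest on the fewest estimated reads.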
